A study of Mus musculus with 9 samples.

Results

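The mouse genome holds 8 genes of the E2F family of transcription factors, E2f1 to E2f8, and their transcripts were followed in ovaries of mice that differed in Taf4b genotype. The members were found by gene symbol in the deposited table that sets wild-type against knockout arrays. Each gene was read from its probe set of highest mean intensity, which gave 8 of the 22231 genes tested. E2f3 had a further probe set, so 9 of 25100 tested probe sets belonged to the family. The members were grouped by their known roles as activating (E2f1, E2f2 and E2f3), repressing (E2f4, E2f5 and E2f6) and atypical (E2f7 and E2f8), and not by any measured value.

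Total ovarian RNA came from 9 mice aged 3 weeks: 3 labelled Taf4b knockout, 3 labelled Taf4b heterozygote and 3 labelled wild type. RNA of each animal was hybridised to 1 Affymetrix Mouse Gene 1.0 ST array, and SDs below are between animals. Taf4b encodes a subunit of TFIID, the general factor that sits on core promoters, and the genotypes allow the E2F genes to be compared at 2, 1 and 0 intended copies of it. The sources used here give no strain, litter, treatment or design of the Taf4b allele.

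E2F proteins bind promoters of genes needed for DNA replication and mitosis, the classical members as dimers with a DP protein. In resting cells the retinoblastoma family of pocket proteins holds them inactive or turns them into repressors, and cyclin-dependent kinases release them when a cell enters S phase. The atypical members bind DNA without a DP partner and shut the same promoters down later in the cycle. In the ovary of a juvenile mouse, the dividing granulosa cells of growing follicles are a main site of cell cycle activity, while oocytes are arrested in meiosis.

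Taf4b intensity was 332, 626 and 403 in the arrays labelled knockout 1, 2 and 3, against 494, 635 and 723 in wild type, with 456, 595 and 574 in heterozygotes. The log2 difference of labelled knockout from wild type was -0.48 (SE 0.23, adjusted p = 0.514, limma), so Taf4b itself was not called. Labelled knockouts 1 and 3 stood at 54% and 65% of the wild-type mean, beside 80% in wild type 1 and 74% in heterozygote 1. The array labelled knockout 2 stood at 101% of the wild-type mean and so went against its label. The sources used here do not place this probe set relative to the deletion, and all directions below that rest on the labelled knockouts carry this doubt. Heterozygote 1 stood apart as well, with Pearson correlations of 0.984 to 0.988 over all probe sets with the other arrays, each of which reached 0.997 or 0.998 with its closest array. Median intensities were 123.70 to 126.89, all 8 E2F probe sets lay above the intensity of 45.0 below which the dimmest 25% of the table lies, and precision is limited by having 3 arrays per genotype. Markers of oocytes (15 genes) and granulosa cells (12 genes) all had mean intensities above that level.

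All 8 E2F genes had a lower mean in the ovaries labelled knockout than in wild type, by 0.11 to 0.34 on the log2 scale, with a median difference of -0.23. Over all tested probe sets the median difference was -0.004 and 51.7% had the lower mean in the labelled knockouts. None of the 8 passed an adjusted p of 0.05 in limma (0 called, smallest adjusted p = 0.220), where 0.0757% of all tested probe sets passed. At an unadjusted p under 0.05 there were 5 members, E2f1, E2f2, E2f4, E2f7 and E2f8, all lower in the labelled knockouts, where 5.77% of tested probe sets met this in the same direction. At 4 members, E2f1, E2f2, E2f7 and E2f8, every labelled knockout array lay below every wild-type array, a separation that 7.77% of probe sets showed. In RNA of a whole organ, fewer cells that carry a transcript and less of it in each cell cannot be told apart. Without knockout 2 all 8 means were still lower, the median was -0.26 and the smallest adjusted p was 0.149 (limma). With the 2 remaining labelled knockouts 5 members separated from wild type, as did 14.8% of all tested probe sets.

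**Figure D1:**
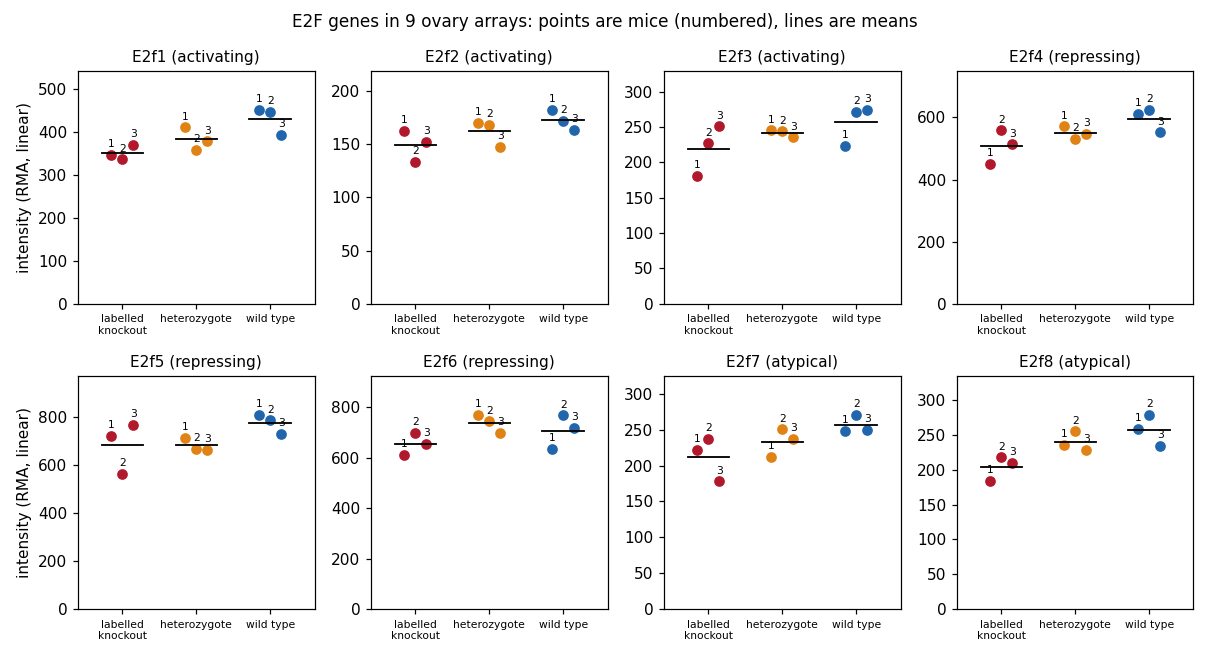
Intensity of each E2F gene (vertical axis, linear RMA units, own scale per gene) in the 3 labelled knockout, 3 heterozygote and 3 wild-type arrays; points are mice with their label number and lines are group means. At E2f1, E2f2, E2f7 and E2f8 the labelled knockout points lie below all wild-type points, and heterozygote points overlap wild type at every gene but E2f5.

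E2f1 encodes the founding activator, which drives S-phase genes and can also trigger apoptosis. Its intensity was 346, 336 and 369.9 in the labelled knockouts, 410.0, 358 and 377 in heterozygotes, and 451, 446 and 393 in wild type. The labelled knockouts and wild type did not overlap, with means of 350.4 ± 17.5 and 430.0 ± 32.1 (SD, n = 3 each), and the heterozygotes spanned the gap between them. The log2 difference of labelled knockout from wild type was -0.29 (SE 0.08, adjusted p = 0.223, limma), or 81.6% of the wild-type level, and it ranged from -0.36 to -0.26 as each array was left out in turn. Heterozygotes differed from wild type by -0.17 (SE 0.08, adjusted p = 0.815, limma).

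E2f2, an activator that overlaps with E2f1 in function, read 162, 133 and 152 in the labelled knockouts and 170.3, 168 and 147 in heterozygotes, against 183, 172 and 164 in wild type. The labelled knockouts again lay wholly below wild type, though the gap between knockout 1 and wild type 3 was 1.3 intensity units. The log2 difference was -0.21 (SE 0.09, adjusted p = 0.445, limma). Without knockout 2, which had the lowest E2f2 value of the series, it was -0.13.

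E2f3, which gives an activating and a shorter, repressing form from separate promoters in mice, was read by probe sets 10408475 and 10408477. The first read 181, 227 and 251 in the labelled knockouts, 246, 244 and 236 in heterozygotes, and 224, 272 and 275 in wild type. These groups overlapped, and knockout 1 had the lowest value of the 9 arrays. The log2 difference of labelled knockout from wild type was -0.23 at both probe sets (SE 0.12 and 0.09, adjusted p = 0.554 and 0.432, limma), and at the first it was -0.099 without knockout 1. At the second probe set the labelled knockouts (175, 203 and 189.6) lay below the heterozygotes (225, 247 and 220.4), with a log2 difference of -0.28 (adjusted p = 0.251, limma), where the first gave -0.15. For heterozygote against wild type the probe sets had opposite signs, -0.08 at the first and 0.05 at the second. Which of the forms each probe set reads was not tested.

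Among the repressing members, E2f4 encodes the E2F most abundant in many resting cells, where it carries pocket proteins to promoters. Its values were 450.2, 558 and 514 in the labelled knockouts, 572, 531 and 547 in heterozygotes, and 612, 625 and 552 in wild type. Knockout 2 reached into the wild-type range, and the groups overlapped. The log2 difference of labelled knockout from wild type was -0.24 (SE 0.09, adjusted p = 0.375, limma), -0.31 (adjusted p = 0.177, limma) without knockout 2 and -0.15 (adjusted p = 0.699, limma) without knockout 1.

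E2f5, the closest relative of E2f4, read 723, 565 and 769 in the labelled knockouts, 716, 669.8 and 664 in heterozygotes, and 811, 789 and 733 in wild type. It was the member at which all heterozygotes lay below all wild-type arrays. Their log2 difference was -0.19 (SE 0.11, adjusted p = 0.815, limma). The labelled knockouts also differed from wild type by -0.19 (SE 0.11, adjusted p = 0.580, limma), but by -0.06 without knockout 2, the lowest of all arrays at this gene. Knockout 2 and the heterozygotes were also low in oocyte markers. The mean log2 deviation of the 15 oocyte markers was 0.15, -0.35 and 0.27 in labelled knockouts, -0.05, -0.13 and -0.31 in heterozygotes, and 0.34, 0.18 and -0.10 in wild type. All 15 had a lower mean in heterozygotes than in wild type (48.7% of all tested probe sets did). Their part in the E2f5 values was not tested.

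E2f6, a repressor without a pocket protein binding domain that acts with Polycomb proteins, read 611, 699 and 656 in the labelled knockouts, 770.4, 744 and 699 in heterozygotes, and 635, 768 and 719 in wild type. It was the exception in the family, since its heterozygote mean, 737.9 ± 36.2, was above the wild-type mean of 707 ± 67.2 (SD, n = 3 each). That log2 difference was 0.06 (SE 0.08, adjusted p = 0.882, limma) and turned to -0.01 without wild type 1. Labelled knockouts differed from wild type by -0.11 (SE 0.08, adjusted p = 0.718, limma), the smallest difference of the 8 with all arrays. It ran from -0.18 without wild type 1, where E2f5 at -0.16 was smaller, to -0.047 without wild type 2.

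The atypical members gave the lowest class median, -0.31. E2f7 read 222, 237 and 178 in the labelled knockouts, 212, 250.4 and 237 in heterozygotes, and 248, 271 and 250.1 in wild type. No labelled knockout reached the wild-type range, and the log2 difference was -0.28 (SE 0.11, adjusted p = 0.405, limma). It was -0.16 when knockout 3, with the lowest value of the series, was left out, and -0.37 without knockout 2.

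E2f8, which partners E2f7 in damping E2f1 and the replication genes, showed the largest difference of the family. Its values were 184, 218 and 209.5 in the labelled knockouts, 236, 255 and 228 in heterozygotes, and 259, 279 and 235 in wild type. The labelled knockouts lay below all 6 other arrays. Their means were 204 ± 17.8, against 239.8 ± 13.9 in heterozygotes and 257 ± 22.0 in wild type (SD, n = 3 each). The log2 difference from wild type was -0.34 (SE 0.09, adjusted p = 0.220, limma), or 79.1% of the wild-type level, and that from heterozygotes was -0.24 (SE 0.09, adjusted p = 0.286, limma). The difference from wild type stayed between -0.40 and -0.27 as each array was left out in turn.

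**Figure D2:**
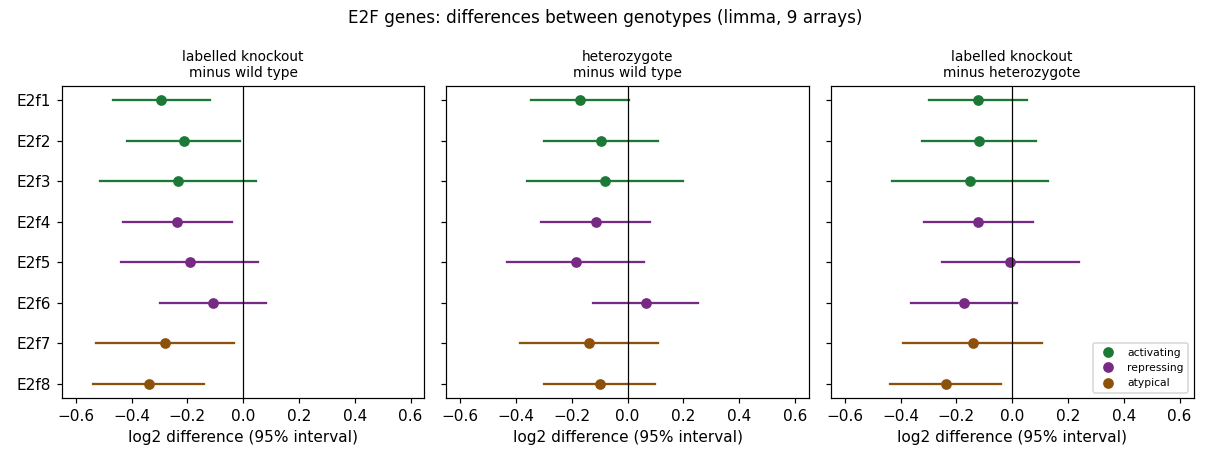
Log2 difference of each E2F gene (horizontal axis) in the 3 comparisons, with unadjusted 95% intervals from limma; colours mark activating, repressing and atypical members. Against wild type all 8 points of the labelled knockouts lie left of 0 (-0.34 to -0.11), and the heterozygote points lie closer to 0 with E2f6 to its right.

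The design allows the activating members to be set against the repressing and atypical ones. For each array, the mean over a class of each gene's log2 value minus its 9-array mean was taken. The activating class averaged -0.13 ± 0.09 in labelled knockouts, 0.01 ± 0.07 in heterozygotes and 0.12 ± 0.04 in wild type. For the repressing class these means were -0.09 ± 0.06, 0.01 ± 0.06 and 0.09 ± 0.07 in the same order of genotypes. The atypical class had -0.17 ± 0.12, 0.02 ± 0.09 and 0.14 ± 0.09 (SD, n = 3 arrays throughout). In each class the labelled knockout mean was lowest and the wild-type mean highest. The activating mean minus the mean of the other 5 members was -0.003 ± 0.10 in labelled knockouts, -0.01 ± 0.05 in heterozygotes and 0.01 ± 0.03 in wild type. That balance differed between labelled knockout and wild type by -0.015, less than its SD between arrays of 0.07. Within the labelled knockouts it was -0.01, -0.11 and 0.10, so these 3 mice differed more among themselves than the genotype means did.

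**Figure D3:**
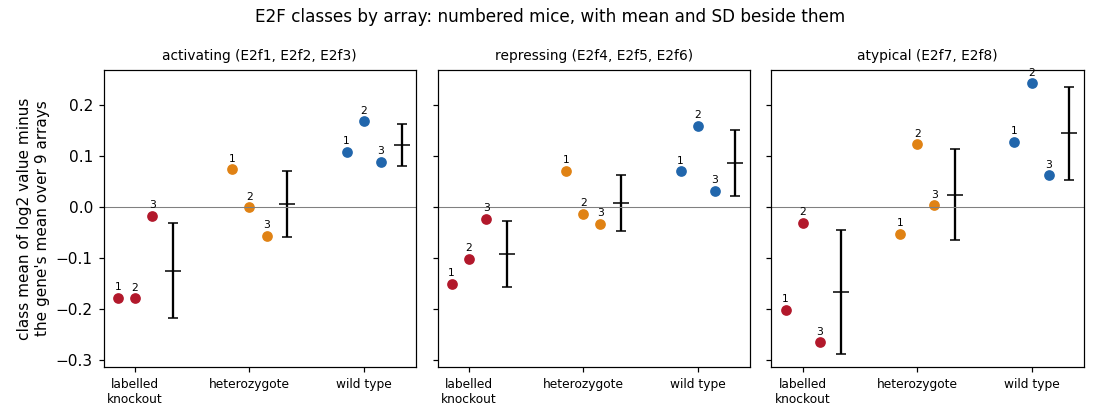
Class mean of the log2 deviation from the 9-array mean (vertical axis) for activating, repressing and atypical E2F genes in each labelled knockout, heterozygote and wild-type array; numbered points are mice, bars give mean and SD. In each class the labelled knockout mean is lowest (-0.13, -0.09 and -0.17) and the wild-type mean highest (0.12, 0.09 and 0.14).

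Over all 8 genes the mean deviation was -0.17, -0.11 and -0.08 in labelled knockouts 1, 2 and 3, 0.04, 0.02 and -0.03 in heterozygotes, and 0.10, 0.18 and 0.06 in wild type. The labelled knockouts lay below the 6 other arrays, and wild type lay above the rest. At 7 of 8 members, all but E2f6, the log2 means stood in the order labelled knockout, heterozygote, wild type from low to high, an order that 16.8% of all tested probe sets had. At E2f5 the step from heterozygote to labelled knockout was only -0.0062 (SE 0.11), and it turned to 0.13 without knockout 2. The second E2f3 probe set broke the order, with the heterozygote mean above wild type by 0.05.

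Between heterozygotes and wild type, 7 E2F genes had the lower mean in heterozygotes (48.7% of all probe sets did), with a median difference of -0.11 beside 0.003 over all probe sets. No member was called by limma (0 of 8, and 0% of all tested probe sets), and 0 had an unadjusted p under 0.05, where 3.04% of probe sets had one in the lower direction. E2f5 was the 1 member without overlap, a pattern of 6.43% of probe sets. The interval of the difference still allowed sizeable changes, for example -0.35 to 0.00 at E2f1 and -0.30 to 0.10 at E2f8.

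Between labelled knockouts and heterozygotes all 8 log2 means were lower in the labelled knockouts (54.6% of all probe sets were), from -0.0062 at E2f5 to -0.24 at E2f8, with a median of -0.13 beside -0.013 over all probe sets. Limma called none of the members (0 of 8), where 0.0239% of all tested probe sets were called. E2f8 was the 1 member with an unadjusted p under 0.05 (lower in 6.57% of probe sets) and the 1 without overlap (8.12%). At E2f5 the linear means were 685.6 and 683.1, opposite in order to the log2 means, and the log2 difference became 0.13 without knockout 2. Both comparisons with the labelled knockouts share those arrays, so their values are not independent of each other.

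The authors' deposited table gives a ratio of wild type over knockout of 1.23 for E2f1 (p = 0.0196 in that table, equal-variance test on linear intensities) and 1.26 for E2f8 (p = 0.0300). The authors' deposited p-values carry no test name, and the test given here is an inference. In the authors' deposited table the other 6 members had ratios of 1.08 to 1.21, also above 1, with p of 0.0823 or more. After Benjamini-Hochberg adjustment of the authors' deposited p-values over all tested probe sets, the smallest of the family was 0.627.

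RefSeq promoter windows of build GRCm38.p6, from 250 bases before to 50 bases after a transcript start, were given for 6 members and not for E2f4 and E2f5. They were searched on both strands for the letters of the E2F site, TTTCCCGC, TTTCGCGC, TTTGCCGC or TTTGGCGC, and for the same letters without the first T, so that each longer match contains a shorter one. The longer letters were in the windows of 3 of 6 members (50%), E2f2, E2f3 and E2f7, against 2.60% of 27025 genes with a window. The shorter letters were in 4 of 6 (66.7%), with E2f8 added, against 10.9% of genes, and none was found in the windows of E2f1 and E2f6. The transcript starts of the E2f1, E2f6 and E2f8 windows lie inside the gene, 465, 56 and 476 bases from its outermost start. E2f2 and E2f3 each had a further window, with its start 8508 and 1672 bases inside the gene. The bases before the start are shown for E2f3 (chr13:29986065-29986313, minus strand) and E2f7 (chr10:110745189-110745438, plus strand), an activating and an atypical member whose upstream windows hold the longer letters; capitals mark the shorter letters on either strand.
E2f3: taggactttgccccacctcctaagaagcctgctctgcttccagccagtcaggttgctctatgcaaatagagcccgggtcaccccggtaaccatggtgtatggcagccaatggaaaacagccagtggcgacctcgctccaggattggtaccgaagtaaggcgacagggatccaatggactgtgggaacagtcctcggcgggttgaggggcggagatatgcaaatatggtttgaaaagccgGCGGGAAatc
E2f7: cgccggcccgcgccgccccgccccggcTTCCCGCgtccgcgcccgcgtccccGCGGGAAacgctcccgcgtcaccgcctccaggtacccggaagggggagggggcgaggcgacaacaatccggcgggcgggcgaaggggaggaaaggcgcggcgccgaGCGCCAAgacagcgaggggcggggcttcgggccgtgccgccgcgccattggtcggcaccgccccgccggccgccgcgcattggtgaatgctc
The E2f3 window has matches at -10 and, outside the stretch shown, at 20, counted in bases from the start. In the E2f7 window they lie at -223, -198 and -92. A match in letters is a description and shows no binding in these ovaries.

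The DP partners had differences of opposite sign. Tfdp1, the main DP protein, averaged 1238 in labelled knockouts, 1306 in heterozygotes and 1353 in wild type, a log2 difference of labelled knockout from wild type of -0.13 (adjusted p = 0.631, limma). Tfdp2 read 735, 699.6 and 698 in the labelled knockouts, 616, 638 and 565 in heterozygotes, and 646, 614 and 646 in wild type. All labelled knockouts lay above the 6 other arrays at Tfdp2, opposite in direction to the E2F means. The log2 differences were 0.16 from wild type (adjusted p = 0.381, limma) and 0.23 from heterozygotes (adjusted p = 0.185, limma). Neither DP gene passed the test. The share of all tested probe sets separated in the higher direction was not counted. In the lower direction 7.77% separated from wild type and 8.12% from heterozygotes.

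Of the pocket proteins and the MuvB subunits that join them in the DREAM repressor complex, 6 of 8 had a lower mean in labelled knockouts than in wild type, 0 were called in either direction, and the median difference was -0.09. Over all tested probe sets 51.7% had the lower mean and 0.0757% were called. Rb1, the retinoblastoma protein, read 479.7, 555 and 467 in the labelled knockouts, 522, 658 and 691 in heterozygotes, and 583, 642 and 628 in wild type. Its labelled knockout and wild-type arrays did not overlap (7.77% of tested probe sets separated this way), at a log2 difference of -0.31 (adjusted p = 0.377, limma). Rbl1, the pocket protein p107 and itself an E2F target, read 581, 644 and 662 in labelled knockouts, 729.9, 695 and 688 in heterozygotes, and 702, 749 and 769 in wild type. It separated the labelled knockouts from all other arrays, at -0.24 from wild type (adjusted p = 0.250, limma). Rbl2, the pocket protein p130 of resting cells, differed by -0.08, and the MuvB genes lay between -0.12 (Lin54) and 0.08 (Lin52), with Lin37 at -0.11, Lin9 at 0.07 and Rbbp4 at -0.003.

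Upstream of the pocket proteins, 8 of 14 cyclins, kinases and inhibitors had the lower mean in labelled knockouts against wild type, with 0 called and a median of -0.06. The shares over all tested probe sets were 51.7% lower and 0.0757% called. Ccnd2, the D-type cyclin prominent in granulosa cells, averaged 5685 in labelled knockouts and 6400 in wild type (log2 difference -0.17, adjusted p = 0.350, limma). Ccnd3 had the opposite sign at 0.19, as had the inhibitor Cdkn1b (p27) at 0.15, and the kinase Cdk6 stood at -0.20 (adjusted p = 0.371, 0.424 and 0.500, limma). In heterozygotes against wild type the list was even, with 7 of 14 lower, 0 called and a median of -0.01 (48.7% of all tested probe sets lower, 0% called). In labelled knockouts against heterozygotes 10 of 14 were lower, 0 called, with a median of -0.03 (54.6% of all lower, 0.0239% called).

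The 30 S-phase genes that are textbook E2F targets all had a lower mean in the labelled knockouts than in wild type (51.7% of all tested probe sets did), by 0.11 to 0.45 on the log2 scale, with a median difference of -0.27. None passed the adjusted threshold in limma (0 of 30, where 0.0757% of all tested probe sets passed). There were 21 with an unadjusted p under 0.05 (5.77% of all tested probe sets in this direction) and 21 without overlap between the groups (7.77%). The list was chosen with earlier results of these data known. Its genes were read on the same arrays, so they are not 30 independent observations. Brca1, a homologous recombination gene, read 288, 316 and 311 in labelled knockouts, 356, 362 and 351 in heterozygotes, and 397, 452 and 406 in wild type. The 3 genotypes did not overlap at Brca1, and its log2 difference of labelled knockout from wild type was -0.45 (SE 0.06, adjusted p = 0.0566, limma). Ezh2, the methyltransferase of Polycomb complex PRC2, read 1004, 1001 and 1018 in labelled knockouts, 1156, 1193 and 1198 in heterozygotes, and 1208, 1227 and 1237 in wild type, a difference of labelled knockout from wild type of -0.28 (SE 0.04, adjusted p = 0.0770, limma). These genotypes did not overlap either. The share of all tested probe sets with all 3 genotypes apart was not counted. Brca1 and Ezh2 passed the threshold when the dimmest 25% of probe sets was left out and when the variance was fitted with a trend on the mean. No target passed under any other alternative in this comparison.

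Mcm5, a subunit of the replicative helicase, averaged 738 in labelled knockouts, 895 in heterozygotes and 949 in wild type (labelled knockout minus wild type -0.36, adjusted p = 0.0906, limma). Cdc25a, the phosphatase that activates CDK2, averaged 849, 988 and 1061 in labelled knockouts, heterozygotes and wild type (-0.32, adjusted p = 0.0958, limma). The 6 helicase genes Mcm2 to Mcm7 lay between -0.36 and -0.19, and the replication factor Pcna at -0.22 (adjusted p = 0.490, limma). At the other end, Tk1, thymidine kinase, differed by -0.11 and the maintenance methyltransferase Dnmt1 by -0.13. Without knockout 2 all 30 were still lower than wild type, with a median of -0.27, and 23 showed no overlap, where 14.8% of all tested probe sets did in that setting.

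In heterozygotes, 26 of the 30 targets had a mean below wild type (48.7% of all tested probe sets did), with a median of -0.08. None was called (0 of 30, and 0% of all tested probe sets), 5 had an unadjusted p under 0.05 (3.04% of all in this direction) and 9 showed no overlap (6.43%). In labelled knockouts against heterozygotes, 28 of 30 were lower (54.6% of all tested probe sets were), with a median of -0.20. None was called here (0 of 30, where 0.0239% of all were), 19 had an unadjusted p under 0.05 (6.57% of all in this direction) and 17 showed no overlap (8.12%). Rrm2, a ribonucleotide reductase subunit, averaged 710.3 in labelled knockouts and 879 in heterozygotes (log2 difference -0.31, adjusted p = 0.180, limma). Promoter windows were given for 24 of the targets, and 13 of these (54.2%) held the longer E2F letters and 17 (70.8%) the shorter.

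**Figure D4:**
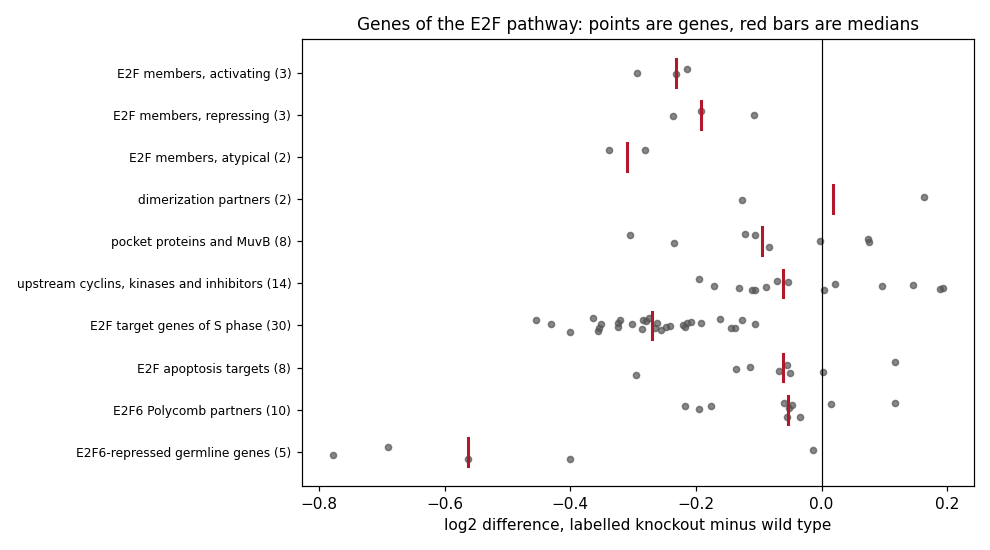
Log2 difference of labelled knockout from wild type (horizontal axis) for each gene of the E2F classes, their partners, regulators and targets; points are genes, red bars list medians, and list sizes stand in parentheses. The E2F classes and all 30 S-phase targets lie left of 0 (target median -0.27), while the dimerization partners and the upstream list lie on both sides.

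Targets tied to apoptosis and to E2F6 were read in the same way. Of all tested probe sets, 51.7% had a lower mean in labelled knockouts than in wild type and 0.0757% were called in either direction. Of 8 apoptosis genes 6 had a lower mean in labelled knockouts than in wild type, with 0 called and a median of -0.06. Trp73, the p53 relative induced by E2f1, averaged 80.4 in labelled knockouts, 86.0 in heterozygotes and 98.5 in wild type (labelled knockout minus wild type -0.30, adjusted p = 0.280, limma), while the BH3 gene Bbc3 stood at 0.12. Of 10 Polycomb partners of E2F6, 8 had the lower mean, 0 were called and the median was -0.05. Pcgf6, L3mbtl2 and Wdr5 showed no overlap, at -0.22, -0.20 and -0.18 (adjusted p = 0.322, 0.371 and 0.395, limma). Over all tested probe sets 7.77% showed such a separation.

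The 5 germline genes that E2F6 is known to keep silent in somatic cells of the mouse all had lower means in the labelled knockouts than in wild type, with 0 called and a median of -0.56. Over all tested probe sets 51.7% were lower and 0.0757% were called. Tuba3a, a testis alpha-tubulin, read 287, 233 and 289.7 in labelled knockouts, 344, 355 and 334 in heterozygotes, and 439, 389 and 365 in wild type. The 3 genotypes did not overlap, and 7.77% of all tested probe sets had every labelled knockout array below every wild-type array. The share with all 3 genotypes apart was not counted. At Tuba3a the difference of labelled knockout from wild type was -0.56 (SE 0.10, adjusted p = 0.100, limma). Tuba3b, close in sequence and below the dim intensity, differed by -0.69, and Smc1b, a cohesin subunit of meiosis, by -0.78 (adjusted p = 0.195 and 0.321, limma). Slc25a31 differed by -0.40 and Stag3 by only -0.014, and at both the arrays of labelled knockout and wild type overlapped. Against heterozygotes Stag3 was higher in the labelled knockouts, by 0.07. The signals of near-identical copies cannot be told apart here. Oocytes also express meiotic genes, and the oocyte marker values given above for E2f5 stand beside these differences; their part was not tested.

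Markers of other cell types, among them oviduct and fat cells, also differed in mean between the genotypes. Of all tested probe sets, 51.7% had the lower mean in labelled knockouts against wild type. For granulosa cells 9 of 12 markers had a lower mean in labelled knockouts than in wild type (0 called), and their mean deviation was -0.16, 0.14 and -0.44 in the labelled knockouts, 0.15, 0.02 and -0.02 in heterozygotes, and 0.12, 0.00 and 0.19 in wild type. Their summed intensity ranged from 22212 to 29671 in labelled knockouts, from 28098 to 30626 in heterozygotes and from 28411 to 29815 in wild type. Knockout 2, whose Taf4b level goes against its label, lay within the wild-type range of mean deviations for granulosa markers. It lay above the wild-type range for theca (0.85), surface epithelium (0.24), macrophage (0.09), adipocyte (0.49), oviduct (0.24), endothelial (0.07) and erythroid (0.18) markers. For oocyte (-0.35) and lymphocyte (-0.09) markers and for S-phase targets (-0.16) it lay below. Among the E2F genes it lay within the wild-type range at E2f3, E2f4 and E2f6 and below that range at E2f1, E2f2, E2f5, E2f7 and E2f8. In the opposite direction, 8 of 8 theca, 9 of 10 surface epithelium, 10 of 10 macrophage, 7 of 8 adipocyte, 6 of 6 oviduct and 7 of 7 endothelial markers had a higher mean in labelled knockouts than in wild type, 0 of them called. Calls were rare over the whole table, at 0.0757% of tested probe sets. Surface epithelium markers summed to 4268 to 4527 in labelled knockouts, 3049 to 3130 in heterozygotes and 2716 to 3358 in wild type. Macrophage markers summed to 1801 to 2518, 1362 to 1499 and 1448 to 1603 in labelled knockouts, heterozygotes and wild type. Lymphocyte markers (2 of 9 higher) and erythroid markers (3 of 5 higher) had median differences of -0.03 and 0.01. Theca markers summed to 4774 to 11062 in labelled knockouts, highest in knockout 2, to 4280 to 8129 in heterozygotes and to 3880 to 4218 in wild type. For adipocyte markers these ranges were 3134 to 3635, 1183 to 2081 and 2367 to 2664, for oviduct markers 804 to 1063, 490 to 688 and 499.9 to 645, and for endothelial markers 3629 to 3997, 2986 to 3259 and 3246 to 3486, in labelled knockouts, heterozygotes and wild type. Arrays give no true 0 for any marker, and the part of cell composition in the E2F values was not tested.

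**Figure D5:**
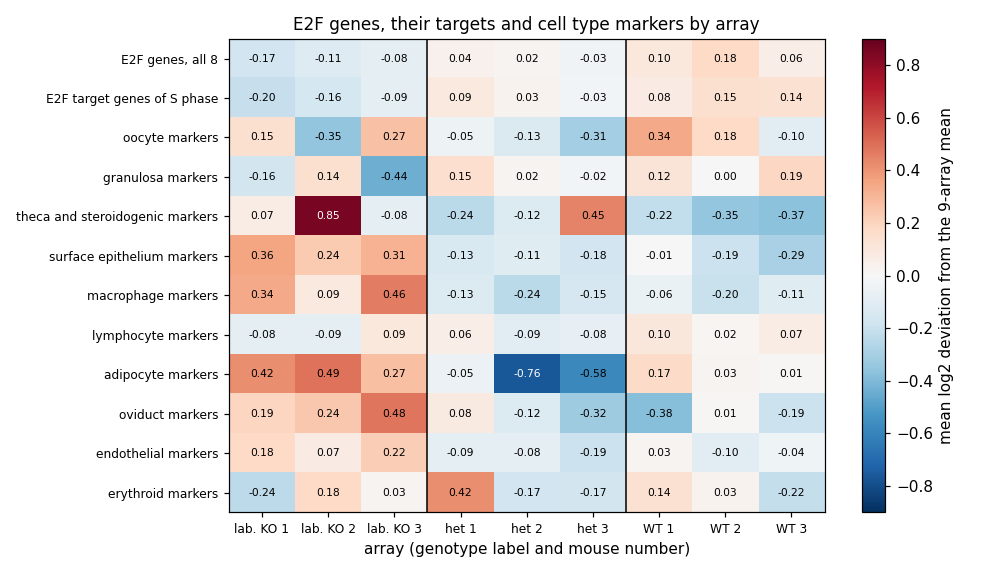
Mean log2 deviation from the 9-array mean (colour and printed value) of the 8 E2F genes, the 30 S-phase targets and 10 marker lists, by array, with labelled knockouts (lab. KO) first, heterozygotes (het) next and wild type (WT) last. E2F genes and targets are below 0 in all 3 labelled knockouts and above 0 in all 3 wild-type arrays, while surface epithelium and macrophage markers run the other way; granulosa markers vary among the labelled knockouts (-0.16, 0.14 and -0.44).

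For each E2F gene the 2 genes with the most similar values over the 9 arrays were sought among 16991 probe sets above the dim intensity, by Pearson correlation of log2 values. These correlations describe 9 arrays that include the genotype differences, and a search this wide returns high values at any gene. E2f5 was closest to Oosp2 (r = 0.981) and Nlrp2 (r = 0.975), both genes of the oocyte. E2f7 was closest to Plekhg4 (r = 0.972) and to Prc1 (r = 0.951), a cytokinesis gene. E2f3 was closest to Rpp40 (r = 0.983) and to Dctd (r = 0.952), an enzyme of thymidylate supply. The closest genes were Sla2 (r = 0.971), after an Ensembl gene model with no symbol (r = 0.978), for E2f1, Lyplal1 and Tspan33 (both r = 0.977) for E2f2, and Scd3 (r = 0.981) for E2f4. For E2f6 they were Khdrbs3 (r = 0.977) and H2bc18 (r = 0.955), and for E2f8 Riox2 (r = 0.933) and Myh8 (r = 0.929).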

How the data were processed

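Ovarian RNA of 9 mice was measured on GeneChip Mouse Gene 1.0 ST arrays, 300 ng of total RNA each, per the series' design text. Samples were grouped and numbered by their labels. The authors made the deposited intensity values with RMA-Sketch in Expression Console 1.1, per the same text, which corrects background, normalizes arrays and sums probes into probe sets. The deposited intensity values are linear, and log2 values were computed here. The authors also deposited a ratio (fold, linear means) and a p-value per probe set for each pair of genotypes. The sources used here name no annotation release. No raw scans were used, so background correction and scan batches could not be varied or tested, and no value column was left unmapped (0).

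Of 28266 probe sets, 25100 had a symbol and were tested. Symbols were updated through RefSeq of GRCm38.p6 for 18712 probe sets with a matching accession, 2208 with a matching symbol and 1751 with a synonym, 2278 kept the file's symbol, and 151 probe sets with several symbols named no gene. One limma 3.58.1 model (R 4.3.3) with 3 group means was fitted to all 9 arrays, with eBayes and two-sided Benjamini-Hochberg adjustment over the 25100. Called means an adjusted p of 0.05 or less. The arrays of a pair do not overlap when every array of 1 group lies on the same side of every array of the other. The procedure was tested on simulated data.

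The members and the 20 gene lists (E2F classes, partners, pocket proteins and MuvB, upstream regulators, S-phase, apoptosis and E2F6 genes, and 10 marker lists) were chosen with earlier results of these data known. Each gene is its highest-mean probe set. The text names all members, the 2 genes most like each (1 of them is not reported here), all partners and pocket proteins, and up to 4 genes of each other list with the smallest p per comparison; Mcm2 to Mcm7, Pcna, Tk1 and Dnmt1 were named after their values were seen. Deviations of same-numbered mice correlated at -0.19 to 0.33, highest for labelled knockout 1 with wild type 1. Those of differently numbered mice correlated at -0.37 to 0.26. The signs were mixed in both, and the numbers were not used as pairs. Alternatives left out each array, or knockout 2 with heterozygote 1, fitted 6 arrays alone, added the replicate block, and changed normalization, the filter on dim probe sets, the variance model and the test.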

Additional observations from a re-analysis of the deposited data

How the results depend on the processing

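No E2F gene was called under any alternative in any comparison (0 of 8; smallest adjusted p = 0.149, limma, E2f8 without knockout 2). Of 384 recomputed member differences, a count without the linear equal-variance test, 380 kept their direction and side of the threshold. The 4 that changed sign were E2f6 in heterozygotes against wild type (-0.011 without wild type 1, against 0.064 with all arrays) and E2f5 in labelled knockouts against heterozygotes (0.13 without knockout 2, 0.03 without heterozygote 1, 0.16 without both, against -0.0062; leaving out 1 array gave -0.096 to 0.13). In the linear test, 7 of 8 members had the lower mean in labelled knockouts against heterozygotes. The class balance of labelled knockouts against heterozygotes was 0.087 without knockout 2 and heterozygote 1, against 0.0052 with all arrays. The causes were not tested. Called probe sets of the whole table were less stable. For labelled knockout against wild type (19 with all arrays) leaving out 1 array gave 2 to 20, leaving out knockout 2 and heterozygote 1 gave 30, the 6 arrays alone 0, the replicate block 3, omission of the dimmest 25% 48, a mean-variance trend 34 and the linear equal-variance test 4. For labelled knockout against heterozygote (6 with all arrays) leaving out 1 array gave 0 to 261, the highest without knockout 2. Leaving out both arrays gave 409 there, the 6 arrays alone 0, the replicate block 0, quantile normalization 11, median centring 12, omission of the dimmest 25% 30, the trend 29 and the linear test 1. Heterozygote against wild type gave 0 throughout, with 911 to 2259 probe sets at an unadjusted p under 0.05. The replicate block changed no call of an E2F gene or target. With 3 arrays a group, the 95% intervals of single members reach 0.56 log2 units in width, and differences of the size seen here were not called.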

Other observations

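Over the 9 arrays, the 28 pairs of E2F genes had Pearson correlations of log2 values from -0.17 (E2f5 with E2f6) to 0.88 (E2f4 with E2f8). These arrays share the genotype differences and the normalization, so the values are descriptions. E2f2 and E2f5, an activating and a repressing member, correlated at 0.80, and E2f1 correlated at 0.73 to 0.77 with E2f2, E2f4, E2f5 and E2f8. The atypical pair E2f7 and E2f8 stood at 0.63. E2f5 was the member least like the atypical pair, at -0.06 with E2f7 and 0.29 with E2f8.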
